A study of Saccharomyces cerevisiae with 31 samples.

Results

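A pair of elutriation experiments on budding yeast (Saccharomyces cerevisiae) that began from cells of nearly the same size were set against each other, gene by gene. In both, Cdc28-as cells were sorted by size in a centrifuge (elutriation) and then given 1NM-PP1. Cdc28 is the cyclin-dependent kinase that drives the yeast cell cycle, the Cdc28-as form is analog-sensitive, and 1NM-PP1 is a bulky inhibitor that blocks this form. Arrested cells go on growing, so cell size and time in the inhibitor increased together and cannot be told apart. Experiment 1 held 5 libraries of total RNA, at 15.23, 21.58, 29.19, 40.62 and 50.77 fl (femtolitres) of cell volume. Experiment 2 held 3 libraries, at 14.92, 25.55 and 41.8 fl. Cells of both grew in rich medium (YEP) with ethanol as the added carbon source, and a known amount of Candida albicans cells went in before RNA extraction. No untreated arm belongs to either experiment, and the labels give no strain background or age of culture.

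The authors' deposited table gives 1 scaling score per gene and experiment, in units per fl. Library values did not enter, so a score is given with no error, no test was made between the experiments, and every comparison below is a description of these 2 scores. In experiment 1 the score behaves as the slope of a gene's abundance, relative to the smallest cells, on cell size, and the same was assumed for experiment 2. A score of 0 stands for a level that stayed the same on the authors' scale. An abundance that grew in proportion to size would score 0.0657 per fl in experiment 1 and 0.0670 in experiment 2. The sources used here do not say whether the scale is relative to the whole library or to the Candida RNA, so less RNA per cell and a smaller share of the RNA cannot be told apart.

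Genes were kept if both experiments scored them and the authors' median read count in experiment 1 was at least 33, which left 2314 of the 5896 genes scored in both and of the 6713 genes in the table. The floor rests on experiment 1 alone, and the depth of experiment 2 is unknown, so a gene with few reads in experiment 1 was left out whatever it did in experiment 2. The 29 genes just inside the floor, at 33 reads, had median scores of 0.00398 per fl in experiment 1 and 0.0119 in experiment 2. The 28 genes just outside, at 32.5 reads, had 0.00488 per fl in experiment 1 and 0.0144 in experiment 2. The median gene scored 0.00983 per fl in experiment 1 and 0.0115 in experiment 2, and this value was subtracted in each. What remains is called the score over the median gene.

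A yeast cell must build a new ribosome set for every doubling in mass, and the genes for doing so fall into regulons that respond together to nutrients. Genes of ribosome assembly commonly carry a PAC box (GATGAG), bound by Dot6 and Tod6, and an RRPE (AAATTTT), bound by Stb3, upstream of the start codon. Stress and reserve carbohydrate genes carry stress response elements (STRE, AGGGG), bound by Msn2 and Msn4, which protein kinase A keeps out of the nucleus in growing cells. Entry into the cell cycle is driven by SBF and MBF, which bind SCB (CNCGAAA) and MCB (ACGCGT) and switch on the G1/S regulon of cyclins and DNA replication genes. Small cells taken by elutriation are in G1, and with Cdc28 blocked they do not divide while growth can go on.

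The stretches below are shown because they hold the motifs counted below in the main groups of genes. They come from the RefSeq genome (build R64), were read on the strand of the gene, and end before the start codon, with each motif match on either strand in capitals. The first 4 belong to ribosome assembly genes high in both experiments, and each holds at least 1 RRPE upstream of a PAC box.
UTP6 (chrIV:1358994-1359039, minus strand): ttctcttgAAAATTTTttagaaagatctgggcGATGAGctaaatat
RCL1 (chrXV:307792-307849, plus strand): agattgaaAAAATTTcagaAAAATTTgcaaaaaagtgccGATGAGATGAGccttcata
ARX1 (chrIV:657529-657593, minus strand): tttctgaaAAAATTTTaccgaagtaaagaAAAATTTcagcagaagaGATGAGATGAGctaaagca
MRT4 (chrXI:426095-426139, plus strand): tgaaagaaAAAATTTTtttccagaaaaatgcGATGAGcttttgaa

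The next 4 belong to assembly genes that were low in experiment 1 and high in experiment 2, and they hold the same motifs, in varied order and strand.
SAS10 (chrIV:183080-183165, minus strand): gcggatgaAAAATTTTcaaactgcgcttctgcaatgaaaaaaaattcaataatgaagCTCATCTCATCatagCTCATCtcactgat
RRP17 (chrIV:1294548-1294584, plus strand): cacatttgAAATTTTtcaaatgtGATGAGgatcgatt
DIP2 (chrXII:399522-399568, plus strand): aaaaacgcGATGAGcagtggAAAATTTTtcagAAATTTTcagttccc
RSA3 (chrXII:579126-579158, minus strand): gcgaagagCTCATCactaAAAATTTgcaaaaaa

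The last 6 show an RRPE in a tRNA synthetase gene (DED81), MCB and SCB matches in a G1/S gene (POL30, where they overlap), and STRE matches in 3 genes low in both (HSP12, CTT1 and TSL1) and in 1 respiratory gene that split (ATP2).
DED81 (chrVIII:143727-143750, minus strand): aaaagtgaAAAATTTTccatcgtg
POL30 (chrII:425948-425975, minus strand): caccaaaaCGCGAAACGCGTaacttttt
HSP12 (chrVI:107016-107078, plus strand): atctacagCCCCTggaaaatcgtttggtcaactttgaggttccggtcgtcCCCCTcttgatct
CTT1 (chrVII:654493-654513, plus strand): tatcgtatCCCCTactgctac
TSL1 (chrXIII:70385-70471, plus strand): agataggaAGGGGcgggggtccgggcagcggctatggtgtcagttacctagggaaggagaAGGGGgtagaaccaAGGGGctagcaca
ATP2 (chrX:647472-647492, plus strand): cctaaaccCCCCTcataaacg

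Most genes took the same side in both experiments, 1556 of 2314 (67.2%). The genes above the median gene in both numbered 778 (33.6%), and 778 (33.6%) lay below it in both, while 379 (16.4%) lay above in experiment 1 and below in experiment 2 and 379 (16.4%) the other way round. Centring on the median makes both numbers of each pair equal by construction. The scores correlated across the 2314 genes, which are not independent replicates (Spearman's rho 0.487 and Pearson's r 0.329). The top 20% of experiment 1 began 0.0326 per fl over the median gene, and 209 of its 463 genes were also in the top 20% of experiment 2, which began at 0.0226 per fl (9.03% of all genes). The bottom 20%, which ended at -0.0156 per fl in experiment 1 and -0.0149 in experiment 2, shared 206 genes (8.9%). Full swings were few, with 20 genes (0.864%) in the top 20% of experiment 1 and the bottom 20% of experiment 2, and 27 genes (1.17%) in the bottom 20% of experiment 1 and the top 20% of experiment 2.

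**Figure D1:**
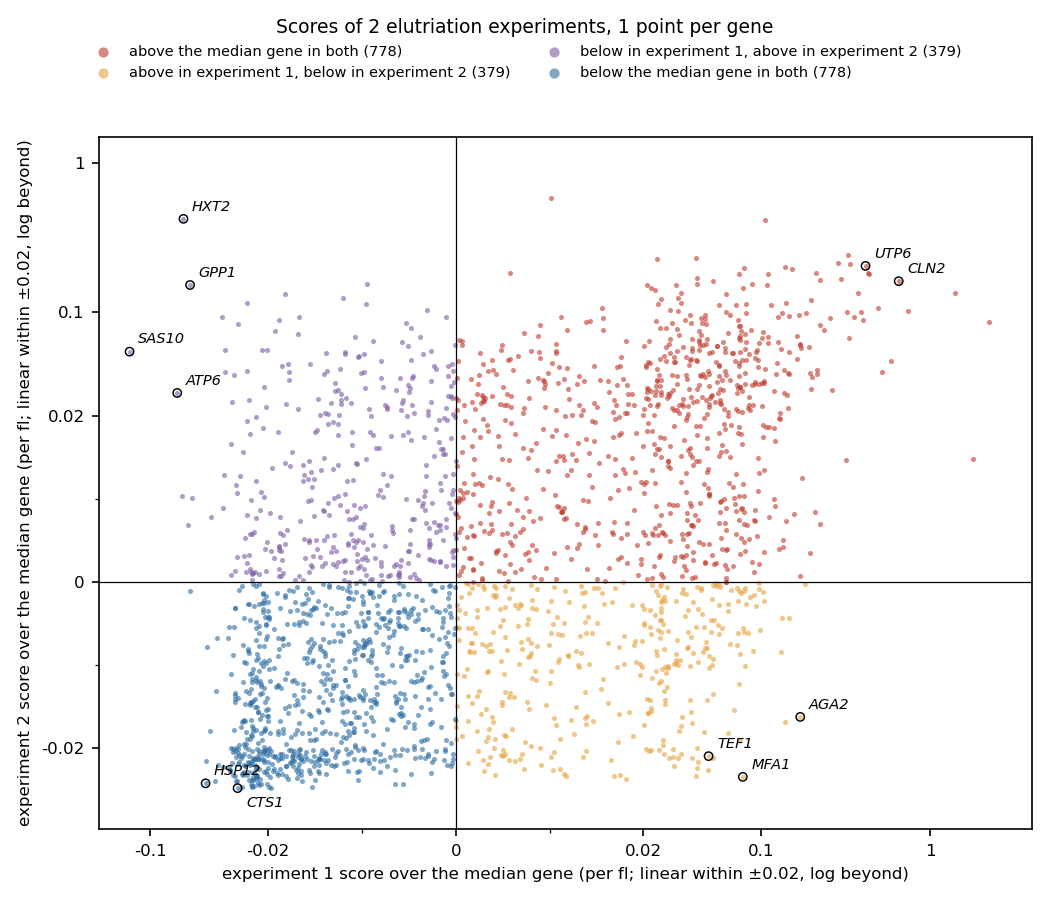
Score over the median gene in experiment 1 (horizontal, per fl) against experiment 2 (vertical, per fl), 1 point for each of 2314 genes, on axes that are linear near 0 and logarithmic beyond. Colours give the 4 combinations of sides, with the 778 genes high in both at upper right and the 778 genes low in both at lower left, and 11 genes named in the text are circled.

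The 10 genes highest in both experiments came from ribosome assembly, nucleotide supply and the G1/S regulon, apart from a carrier of the mitochondrial membrane. UTP6, a subunit of the small-subunit processome that makes 18S rRNA, scored 0.423 per fl in experiment 1 and 0.215 in experiment 2. RCL1, an endonuclease that cuts the pre-rRNA for 18S, scored 0.294 per fl in experiment 1 and 0.225 in experiment 2. ARX1, an export factor of the 60S subunit, and SPB1, an rRNA methyltransferase of 60S assembly, scored 0.231 and 0.219 per fl in experiment 1 and 0.176 and 0.193 per fl in experiment 2. All 4 lay far above the score that proportion to size would give, in both experiments. Their median read counts in experiment 1 were 80 (UTP6), 35.5 (RCL1), 45 (ARX1) and 65 (SPB1), against 66.5 for all 2314 genes. A score relative to the first library depends on the count there, which is unknown, so its size is uncertain. IMD4, an IMP dehydrogenase of guanine nucleotide synthesis, scored 0.304 per fl in experiment 1 and 0.177 in experiment 2, and OAC1, the mitochondrial oxaloacetate carrier, 0.344 per fl in experiment 1 and 0.222 in experiment 2. The G1 cyclin gene CLN2 scored 0.660 per fl in experiment 1 and 0.172 in experiment 2, and PCL1, a cyclin of the Pho85 kinase, 0.336 per fl in experiment 1 and 0.254 in experiment 2. RNR1, the large subunit of ribonucleotide reductase, scored 0.441 per fl in experiment 1 and 0.191 in experiment 2, and PRY2, a secreted sterol-binding protein, 0.437 per fl in experiment 1 and 0.194 in experiment 2.

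Gene lists by function were then placed. Of 52 lists, 45 had at least 5 of these genes. A list is described as high in both, low in both or split where at least 50% of its genes lay in that combination of sides, which held for 14 lists high in both, 12 low in both, 3 higher in experiment 1 and 1 higher in experiment 2, while 15 lists had no such share. The share over all genes, 33.6% for each same-side combination and 16.4% for each split, is the background for every count that follows.

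**Figure D2:**
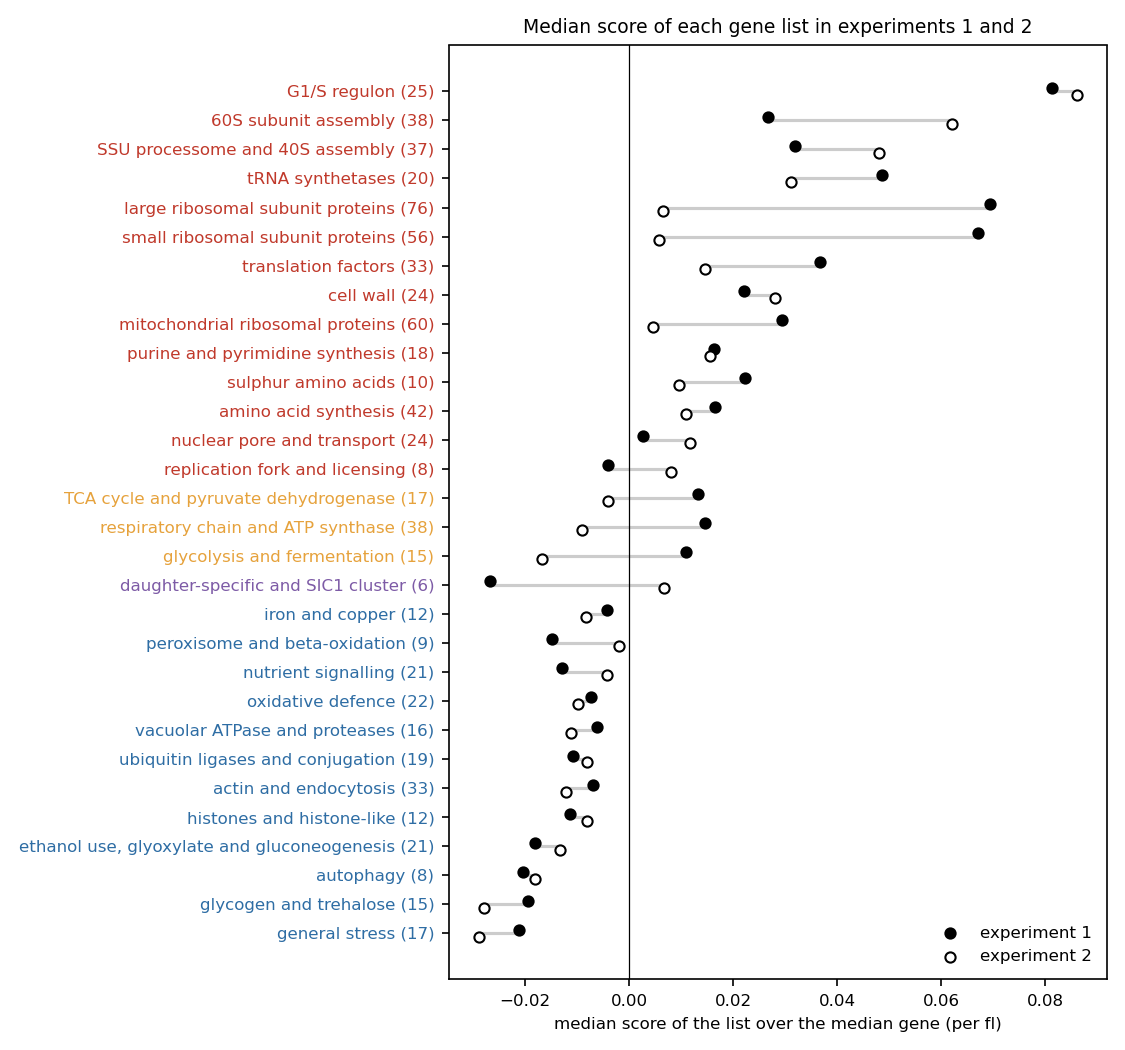
Median score over the median gene (per fl) of the 30 described lists in experiment 1 (filled) and experiment 2 (open), with the number of genes in brackets and label colours for lists high in both (red), split (orange and purple) and low in both (blue). The ribosomal protein lists sit near 0.07 per fl in experiment 1 and under 0.01 per fl in experiment 2, while the G1/S regulon lies above 0.08 per fl in both.

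Ribosome assembly was high in both experiments, with the higher list medians in experiment 2. Of 37 genes of the small-subunit processome and 40S assembly, 28 lay above the median gene in both and 0 below in both, with a list median of 0.0319 per fl over the median gene in experiment 1 and 0.0480 in experiment 2. For 60S assembly 28 of 38 genes lay above in both and 0 below in both, with medians of 0.0267 per fl in experiment 1 and 0.0622 in experiment 2. In the small-subunit list 18 genes were in the top 20% in experiment 1 and 28 in experiment 2, and in the 60S list 17 in experiment 1 and 33 in experiment 2. DIM1, the 18S rRNA dimethylase, scored 0.0833 per fl in experiment 1 and 0.0919 in experiment 2, and UTP13, another processome subunit, 0.0801 per fl in experiment 1 and 0.123 in experiment 2. MRT4 and MAK16, both of 60S assembly, scored 0.207 and 0.332 per fl in experiment 1 and 0.132 and 0.111 per fl in experiment 2. The genes of the lists that did not lie above in both were mostly split one way: 16 lay below the median gene in experiment 1 and above it in experiment 2, and 3 the other way. Of those 16, 5 genes were in the bottom 20% of experiment 1 and the top 20% of experiment 2. SAS10 and RRP17 are also among the 10 largest swings, and DIP2, NAN1 and RSA3 were named after their values were seen. SAS10, a processome subunit, scored -0.122 per fl in experiment 1, the lowest of all 2314 genes, and 0.0657 per fl in experiment 2. RRP17, an exonuclease of pre-rRNA processing, scored -0.0201 per fl in experiment 1 and 0.0940 in experiment 2, DIP2 -0.00946 per fl in experiment 1 and 0.0858 in experiment 2, NAN1 -0.00690 per fl in experiment 1 and 0.104 in experiment 2, and RSA3 -0.00840 per fl in experiment 1 and 0.144 in experiment 2. With a floor of 100 reads, 42.9% of the 60S assembly genes lay above in both.

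The 2 promoter motifs of these genes were shared by genes outside the assembly lists. Among the 2277 genes with an annotated window of 250 bases before the start codon, 110 of the 176 that held both a PAC box and an RRPE lay above the median gene in both experiments (62.5%) and 16 below in both. Without the genes of the assembly lists, 61 of 109 lay above in both (56.0%) and 16 below in both, at medians of 0.0117 per fl over the median gene in experiment 1 and 0.0150 in experiment 2. A PAC box was present in 33 of 37 small-subunit assembly genes and 34 of 37 60S assembly genes with a window, against 17.0% of the 6001 promoters of all nuclear protein-coding genes. All 37 genes of each list held an RRPE, against 21.7% of all promoters. Both shares are matches to letters and not shown binding. The RRPE count takes both strands, and AAAATTTT matches on each of them. Translation factors held an RRPE in 25 of 33 and tRNA synthetases in 18 of 20 promoters, and a PAC box in 7 of 33 and 4 of 20.

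Cytosolic ribosomal proteins, the protein parts of the ribosome itself, were high in both by side but much closer to the median gene in experiment 2. Of 76 large-subunit genes, 51 lay above the median gene in both, 25 above in experiment 1 and below in experiment 2, and 0 below in experiment 1. The list median was 0.0694 per fl over the median gene in experiment 1 and 0.00657 in experiment 2, and 68 genes were in the top 20% in experiment 1 but 15 in experiment 2. The 56 small-subunit genes gave 39 above in both and 16 split the same way, with medians of 0.0672 per fl in experiment 1 and 0.00564 in experiment 2, and with 51 genes in the top 20% in experiment 1 and 13 in experiment 2. RPS9A, a small-subunit protein, scored 0.409 per fl in experiment 1 and 0.1005 in experiment 2, and RPL9B, a large-subunit protein, 0.142 per fl in experiment 1 and 0.111 in experiment 2. RPL33B scored 0.156 per fl in experiment 1 and 0.0654 in experiment 2, and RPS0B 0.134 per fl in experiment 1 and 0.0749 in experiment 2. Many of these genes come as nearly identical pairs, and the counting of reads shared by a pair is not described in the sources used here. Ribosomal protein genes are also short, with a median of 805 bases from start to stop codon for the large subunit and 768 for the small, against 1296 for all 2291 genes with an annotated length. Their median read count was 158.5 for the large and 159 for the small subunit, against 66.5 for all 2314 genes, and gene length moved with the split over all genes, as described further on. With the mean gene subtracted in place of the median gene, 42.1% of the large-subunit and 41.1% of the small-subunit genes lay above in both.

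Other parts of translation were high in both as well. Aminoacyl-tRNA synthetases, which charge tRNAs, were the most uniform, with 19 of 20 above the median gene in both and list medians of 0.0486 per fl over the median gene in experiment 1 and 0.0312 in experiment 2. DED81, the asparaginyl enzyme, scored 0.0963 per fl in experiment 1 and 0.0878 in experiment 2, and CDC60, the leucyl enzyme, 0.0843 per fl in experiment 1 and 0.0809 in experiment 2. Of 33 translation factors 23 lay above in both, 8 above in experiment 1 and below in experiment 2 and 1 below in both, with medians of 0.0367 per fl in experiment 1 and 0.0146 in experiment 2. RLI1, which recycles ribosomes, scored 0.0893 per fl in experiment 1 and 0.0830 in experiment 2, and GCD2, a subunit of eIF2B, 0.0848 per fl in experiment 1 and 0.0429 in experiment 2. Nuclear genes for mitochondrial ribosomal proteins gave 36 of 60 above in both and 22 split toward experiment 1, with medians of 0.0294 per fl in experiment 1 and 0.00452 in experiment 2. MRPL9 scored 0.0894 per fl in experiment 1 and 0.0682 in experiment 2, and MRP13 0.0766 per fl in experiment 1 and 0.0645 in experiment 2. Cytosolic and mitochondrial ribosomal proteins thus shared 1 pattern of sides, with most genes above in both and nearly all others above in experiment 1 alone. Mitochondrial ribosomal protein genes are short as well, with a median of 729 bases, and 58 of the 60 were shorter than 1296 bases. With the mean gene subtracted, 48.5% of translation factors and 35.0% of mitochondrial ribosomal proteins lay above in both.

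The G1/S regulon had the highest medians of the described lists in experiments 1 and 2. Of 25 genes, 21 lay above the median gene in both, 2 in each split and 0 below in both, and 17 were in the top 20% of both. The list median was 0.0813 per fl over the median gene in experiment 1 and 0.0861 in experiment 2. MCB was found in 10 of the 25 promoters and SCB in 8, against 2.90% and 12.5% of all promoters, and the 4 split genes were RFA1, CDC9, SPT21 and NRM1, named after their values were seen. Of 38 genes with an MCB outside the G1/S list, 12 lay above in both and 14 below in both. Replication fork and licensing genes, 8 of which were measured, gave 4 above in both and 3 below in both, and their median was -0.00404 per fl over the median gene in experiment 1 and 0.00808 in experiment 2, so the description of that list as high in both rests on 4 genes. TOP2, topoisomerase II, scored 0.0571 per fl in experiment 1 and 0.0373 in experiment 2, and RFC2, of the clamp loader, 0.0196 per fl in experiment 1 and 0.0504 in experiment 2. RNR4, a small subunit of ribonucleotide reductase named after its values were seen, lay on the other side, at -0.0174 per fl in experiment 1 and -0.00837 in experiment 2, while RNR1 was among the highest genes.

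Wall growth and biosynthesis made up the rest of the lists high in both. Of 24 cell wall genes, 13 lay above the median gene in both, with list medians of 0.0221 per fl over the median gene in experiment 1 and 0.0280 in experiment 2. UTR2 and CRH1, which link chitin to glucan, scored 0.497 and 0.149 per fl in experiment 1 and 0.118 and 0.126 per fl in experiment 2. FKS1, the catalytic subunit of glucan synthase, scored 0.193 per fl in experiment 1 and 0.109 in experiment 2, and SCW10, a wall glucanase-like protein, 0.400 per fl in experiment 1 and 0.112 in experiment 2. CRH1 and EXG1 are also in the G1/S list and count in both lists. PST1 is shared with the daughter-specific and SIC1-cluster list and HSP150 with the chaperone list. Amino acid synthesis gave 23 of 42 genes above in both and 4 below in both, and ARG1, of arginine synthesis, scored 0.597 per fl in experiment 1 and 0.0583 in experiment 2. The median read count of ARG1 in experiment 1 was 39, near the floor of 33. ILV5, of branched-chain amino acid synthesis, scored 0.245 per fl in experiment 1 and 0.0867 in experiment 2. Sulphur amino acid genes gave 7 of 10 above in both, among them SAM1, an S-adenosylmethionine synthetase, at 0.118 per fl in experiment 1 and 0.164 in experiment 2. Purine and pyrimidine synthesis gave 14 of 18, with GUA1, the GMP synthase, at 0.0564 per fl in experiment 1 and 0.101 in experiment 2. Nuclear pore and transport genes gave 14 of 24 above in both and 8 split toward experiment 2, with KAP123, the importin that carries ribosomal proteins into the nucleus, at 0.0749 per fl in experiment 1 and 0.107 in experiment 2. With the mean gene subtracted, 45.8% of cell wall, 31.0% of amino acid synthesis, 33.3% of purine and pyrimidine synthesis and 25% of nuclear pore and transport genes lay above in both, under the share used here. Cell wall genes were also under it with a floor of 10 reads (48.3%) and with no floor (42.9%).

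Stress defence and reserve carbohydrate genes were low in both. All 15 genes of glycogen and trehalose metabolism, the storage sugars of yeast, lay below the median gene in both experiments, 11 of them in the bottom 20% of both. Their list median was -0.0194 per fl over the median gene in experiment 1 and -0.0279 in experiment 2. TSL1 and TPS2, of trehalose synthesis, scored -0.0158 and -0.0138 per fl in experiment 1 and -0.0146 and -0.0208 per fl in experiment 2. PGM2, phosphoglucomutase, scored -0.0139 per fl in experiment 1 and -0.0193 in experiment 2, and GIP2, a regulator of the phosphatase Glc7, -0.0159 per fl in experiment 1 and -0.0214 in experiment 2. Of 17 general stress genes 16 lay below in both and 10 were in the bottom 20% of both, with medians of -0.0212 per fl in experiment 1 and -0.0289 in experiment 2. HSP12, a small membrane-protecting stress protein, scored -0.0371 per fl in experiment 1 and -0.0231 in experiment 2. CTT1, the cytosolic catalase, scored -0.0209 per fl in experiment 1 and -0.0220 in experiment 2, and GRE2, a methylglyoxal reductase, -0.0226 per fl in experiment 1 and -0.0189 in experiment 2. An STRE was found in 11 of the 17 general stress promoters and 8 of the 15 glycogen and trehalose promoters, against 18.8% of all promoters. It was not particular to lists low in both. Of the 3 lists higher in experiment 1, it was found in 16 of 38 respiratory, 6 of 17 TCA cycle and 3 of 15 glycolytic promoters. Whatever their list, 253 of 470 genes with an STRE lay below the median gene in both experiments (53.8%) and 90 above in both (19.1%). With no gene subtracted, 93.3% of glycogen and trehalose genes and 88.2% of general stress genes had scores under 0 in both.

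Pathways of growth on ethanol and of turnover were also low in both. Of 21 genes for using ethanol (glyoxylate cycle and gluconeogenesis), 15 lay below in both, with list medians of -0.0182 per fl over the median gene in experiment 1 and -0.0133 in experiment 2. ADY2, an acetate transporter, scored -0.0189 per fl in experiment 1 and -0.0253 in experiment 2, and FBP1, fructose-1,6-bisphosphatase, -0.0140 per fl in experiment 1 and -0.0123 in experiment 2. Of 8 autophagy genes 7 lay below in both, among them ATG8, the ubiquitin-like protein of the autophagosome, at -0.0107 per fl in experiment 1 and -0.0172 in experiment 2. Vacuolar ATPase and protease genes gave 10 of 16, with the proteases PRB1 at -0.0184 per fl in experiment 1 and -0.0178 in experiment 2 and PEP4 at -0.00665 per fl in experiment 1 and -0.0191 in experiment 2. Ubiquitin conjugation gave 12 of 19 below in both and 0 above in both, with UBC8, a ubiquitin-conjugating enzyme that acts on FBP1 protein, at -0.0169 per fl in experiment 1 and -0.0188 in experiment 2. Oxidative defence gave 11 of 22 and also 7 split toward experiment 1, and AHP1, a peroxiredoxin, scored -0.0142 per fl in experiment 1 and -0.0123 in experiment 2. Peroxisome genes gave 5 of 9, with PEX14, of the import machinery, at -0.0147 per fl in experiment 1 and -0.0126 in experiment 2. With no gene subtracted, of these lists only autophagy kept at least 50% of its genes under 0 in both. With no read floor the shares below in both were 47.8% for vacuolar ATPase and proteases (45.5% with a floor of 10), 44.2% for ubiquitin conjugation and 47.6% for peroxisome genes.

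Actin, histone and signalling genes completed the lists low in both. Actin and endocytosis gave 21 of 33 genes below in both and 6 above in both, with list medians of -0.00691 per fl over the median gene in experiment 1 and -0.0122 in experiment 2. PIL1 and LSP1, the core proteins of eisosomes under the plasma membrane, scored -0.0134 and -0.00918 per fl in experiment 1 and -0.0114 and -0.0178 per fl in experiment 2. An STRE was found in 18 of the 33 promoters of this list. Histone and histone-like genes gave 7 of 12 below in both, including HHT1 at -0.00773 per fl in experiment 1 and -0.00719 in experiment 2, while HTA2, for histone H2A and named after its values were seen, lay in the top 20% of both at 0.0675 per fl in experiment 1 and 0.0356 in experiment 2. Nutrient signalling genes gave 13 of 21 below in both, with the Ras inhibitor gene IRA2 at -0.0139 per fl in experiment 1 and -0.000319 in experiment 2. Iron and copper genes were divided within the list, with 6 of 12 below in both and 5 above in both. FIT3, a wall protein that holds iron chelates, scored -0.0189 per fl in experiment 1 and -0.0184 in experiment 2, while the copper transporter gene CTR1, named after its values were seen, scored 0.340 per fl in experiment 1 and 0.0783 in experiment 2. CUP1-1 and CUP1-2, copies of the metallothionein gene, count as 2 of the 6 low genes. With no gene subtracted, 36.4% of actin and endocytosis genes, 41.7% of histone, 9.52% of nutrient signalling and 41.7% of iron and copper genes had scores under 0 in both, so none of these 4 lists kept its description.

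Energy metabolism carried the largest split toward experiment 1. Of 38 genes of the respiratory chain and ATP synthase, 24 lay above the median gene in experiment 1 and below it in experiment 2 (63.2% of the list), 7 above in both, 6 below in both and 1 the other way. The list median was 0.0146 per fl over the median gene in experiment 1 and -0.00912 in experiment 2. ATP2, the catalytic beta subunit of ATP synthase, scored 0.0486 per fl in experiment 1 and -0.00545 in experiment 2. CYT1, cytochrome c1, scored 0.0359 per fl in experiment 1 and -0.00758 in experiment 2, and QCR7, of the same complex, 0.0314 per fl in experiment 1 and -0.00942 in experiment 2. Of 17 genes of the TCA cycle and pyruvate dehydrogenase 9 split this way and 7 lay above in both, with medians of 0.0131 per fl in experiment 1 and -0.00415 in experiment 2. MDH1, mitochondrial malate dehydrogenase, scored 0.0418 per fl in experiment 1 and -0.0119 in experiment 2, and CIT1, citrate synthase, 0.0237 per fl in experiment 1 and -0.00491 in experiment 2. Of 15 glycolytic and fermentative genes 9 split and 5 lay below in both, with medians of 0.0109 per fl in experiment 1 and -0.0168 in experiment 2. ADH1, alcohol dehydrogenase, scored 0.0321 per fl in experiment 1 and -0.00926 in experiment 2, and GPM1, phosphoglycerate mutase, 0.0238 per fl in experiment 1 and -0.00948 in experiment 2. ENO2, enolase, scored 0.0514 per fl in experiment 1 and -0.00857 in experiment 2, and like TDH3 it has a near-identical copy. With no gene subtracted, 31.6% of respiratory, 17.6% of TCA cycle and 53.3% of glycolytic genes had a positive score in experiment 1 and a negative one in experiment 2, and with the mean gene subtracted the shares of this split were 42.1%, 29.4% and 26.7%. With a floor of 100 reads the TCA cycle list was no longer described as split, and with no read floor the glycolysis list was not. None of the glycolysis, TCA cycle and respiratory chain lists had a member in the top 20% of both experiments, where 9.03% of all genes lay. The same held for several other lists, among them the proteasome and actin and endocytosis.

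**Figure D3:**
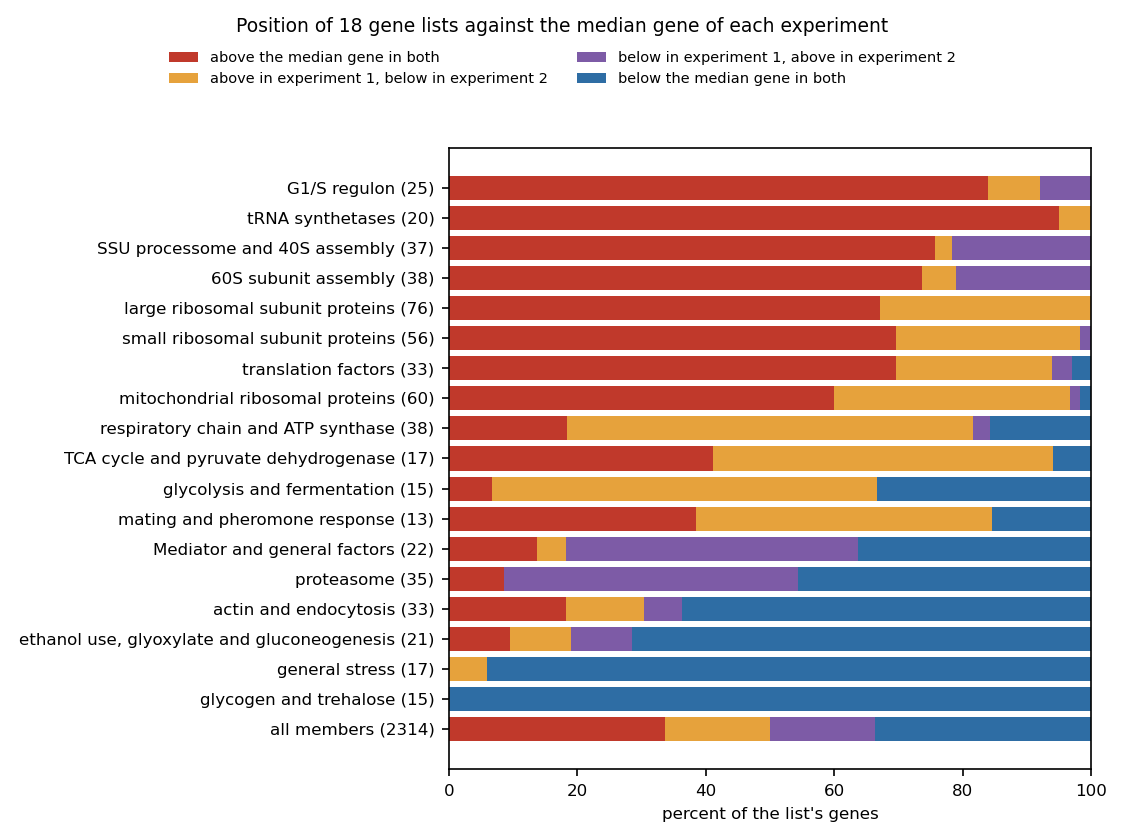
Percent of each list's genes in the 4 combinations of sides, for 18 lists and for all 2314 genes (bottom bar). Orange, for genes above the median gene in experiment 1 and below it in experiment 2, fills 63.2% of the respiratory chain bar against 16.4% of the bar of all genes, and blue, for genes below in both, fills the whole bar of glycogen and trehalose genes.

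The 10 single genes with the largest swing toward experiment 1 were mostly very short. MFA1, which encodes the mating pheromone a-factor and has 111 bases from start to stop codon, scored 0.0874 per fl in experiment 1 and -0.0198 in experiment 2. AGA2, the binding subunit of a-agglutinin, has 264 bases and scored 0.180 per fl in experiment 1 and -0.00476 in experiment 2. TIM9, a chaperone of the mitochondrial intermembrane space of 264 bases, scored 0.148 per fl in experiment 1 and -0.00543 in experiment 2, and HOT13, a protein of the same space, 0.0509 per fl in experiment 1 and -0.0195 in experiment 2. DAD4, a subunit of the DASH ring at kinetochores, has 219 bases and scored 0.0578 per fl in experiment 1 and -0.0165 in experiment 2. RPL43A, with 682 bases, scored 0.0841 per fl in experiment 1 and -0.00750 in experiment 2, and RPS29A, with 171 bases, 0.0514 per fl in experiment 1 and -0.0159 in experiment 2. TEF1 and TEF2 stood apart by length, with 1377 bases each. They encode the same elongation factor and scored 0.0585 and 0.0521 per fl in experiment 1 and -0.0112 and -0.0133 per fl in experiment 2. Their read counts of 490.5 and 491 are nearly equal, and as copies they do not count as separate observations. HOT13 (34), DAD4 (36), TIM9 (37) and AGA2 (37.5) had median read counts in experiment 1 near the read floor. The size of scores that rest on so few reads is uncertain. The rest of the 10 had more reads, with 53 for MFA1, 63.5 for FYV5, 67 for RPS29A and 196 for RPL43A. Of 13 mating genes, 6 split toward experiment 1, all among the 7 shorter than 1296 bases, and 5 of the 6 longer ones lay above in both.

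The largest opposite swings were those of single genes of varied function, among them a glucose transporter, a phosphate transporter and a mitochondrially encoded gene. HXT2, a high-affinity glucose transporter, scored -0.0536 per fl in experiment 1 and 0.432 in experiment 2. GPP1, a glycerol-3-phosphatase, scored -0.0481 per fl in experiment 1 and 0.163 in experiment 2, and VID24, a substrate receptor of the ubiquitin ligase that degrades gluconeogenic enzymes, -0.0276 per fl in experiment 1 and 0.105 in experiment 2. IZH1, a membrane protein of zinc homeostasis, scored -0.0170 per fl in experiment 1 and 0.127 in experiment 2. PHO89, a sodium-phosphate cotransporter, scored -0.0169 per fl in experiment 1 and 0.0515 in experiment 2. The list of 9 phosphate genes did not share this swing, with 1 gene split this way and 3 the other way. ROX1, the repressor of hypoxic genes, scored -0.0261 per fl in experiment 1 and 0.0509 in experiment 2. ATP6, an ATP synthase subunit encoded in the mitochondrial genome, scored -0.0592 per fl in experiment 1 and 0.0402 in experiment 2. The 3 other mitochondrial genes for respiratory subunits that passed the read floor, COX1, COB and OLI1, were named after their values were seen. They too lay below the median gene in experiment 1 and above it in experiment 2. COX1 scored 0.00620 per fl in experiment 1 and 0.0207 in experiment 2, COB -0.0207 per fl in experiment 1 and 0.0223 in experiment 2, and OLI1 -0.00303 per fl in experiment 1 and 0.0452 in experiment 2. Over all 13 mitochondrially encoded genes, 11 took this combination, but 9 of the 13 are reading frames within introns of COX1 or COB and share the transcripts of those genes. Most nuclear subunits of the respiratory chain took the opposite sides, above in experiment 1 and below in experiment 2.

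The score formula bears on these lowest values. If no later library of experiment 1 exceeded the first, a slope relative to the first library could not lie under -0.0346 per fl. The scores of 11 genes did, among them HSP12, which was low in both, and SAS10, HXT2, GPP1 and ATP6 of the 27 full swings toward experiment 2. On that reading their level in the second or the third library of experiment 1 was above that of the first. In experiment 2 the same limit was -0.0392 per fl, and 0 genes lay under it. The values per library were not used here, so the course itself is unknown.

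Among lists with at least 5 genes, those with the largest shares of genes below the median gene in experiment 1 and above it in experiment 2 were the proteasome, Mediator and the daughter-specific genes. The proteasome, which degrades ubiquitinated proteins, gave 16 of 35 genes (45.7%) split this way, 16 below in both, 3 above in both and 0 the other way. Its list median was -0.00887 per fl over the median gene in experiment 1 and 0.000994 in experiment 2, so its genes lay close to the median gene in experiment 2. RPN1 and RPN8, of the regulatory particle, scored -0.00496 and -0.00126 per fl in experiment 1 and 0.0298 and 0.0297 per fl in experiment 2. Mediator and general transcription factors gave 10 of 22, with medians of -0.0135 per fl in experiment 1 and 0.00488 in experiment 2, and TAF3 and TAF12, subunits of TFIID, scored -0.00874 and -0.0113 per fl in experiment 1 and 0.0551 and 0.0428 per fl in experiment 2. Genes switched on in daughter cells or in the SIC1 cluster, around the end of mitosis, numbered 6 and gave 3 split this way, 2 the other way and 1 below in both. SIC1, the inhibitor of S-phase CDK, scored -0.0182 per fl in experiment 1 and 0.0272 in experiment 2, AMN1, an antagonist of mitotic exit, -0.0157 per fl in experiment 1 and 0.0294 in experiment 2, and PST1, a wall protein, -0.0219 per fl in experiment 1 and 0.0494 in experiment 2. Median read counts in experiment 1 were near the floor of 33 for SIC1 (35.5), PST1 (36) and AMN1 (39.5), and the median over this list was 41. CTS1, the chitinase that parts mother and daughter, scored -0.0205 per fl in experiment 1 and -0.0257 in experiment 2 and so lay among the lowest genes of both. With a floor of 10 reads the share of daughter-specific and SIC1-cluster genes split toward experiment 2 was 33.3%. The other 7 lists had fewer than 5 genes over the read floor and were only counted, with 3 genes of RNA polymerase I, 4 of RNA polymerase II, 4 of RNA polymerase III, 2 of tRNA modification, 4 of the mitochondrial genome, 4 of hexose transport and 4 of the CLB2 cluster.

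Gene length and read count moved with the direction of the split. Among the shortest 20% of genes (78 to 687 bases, 459 genes), 32.0% lay above the median gene in experiment 1 and below it in experiment 2, and 8.06% the other way. Among the longest 20% (2304 to 14733 bases, 458 genes) the shares were 9.83% and 22.7%. The percentile rank of a gene in experiment 1 minus that in experiment 2 correlated with length across 2291 genes (Spearman's rho -0.294). The median score of the shortest 20% was 0.00526 per fl over the median gene in experiment 1 and -0.00857 in experiment 2, which is farther from the median gene in experiment 2. In the 20% of genes with the most reads (132.5 to 1419) 25.1% were split toward experiment 1 and 9.31% toward experiment 2. Respiratory genes are short, with a median of 454.5 bases, and have a median of 172 reads. Their split was as frequent in the 6 longer genes, where 4 split, as in the 32 shorter ones, where 20 did (62.5%). Glycolytic genes split in 5 of 6 shorter and 4 of 9 longer genes, and TCA cycle genes in 5 of 8 and 4 of 9. The share among all longer genes was 11.4% and among all shorter genes 21.1%. The part of length, read count or library preparation in the split was not tested.

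**Figure D4:**
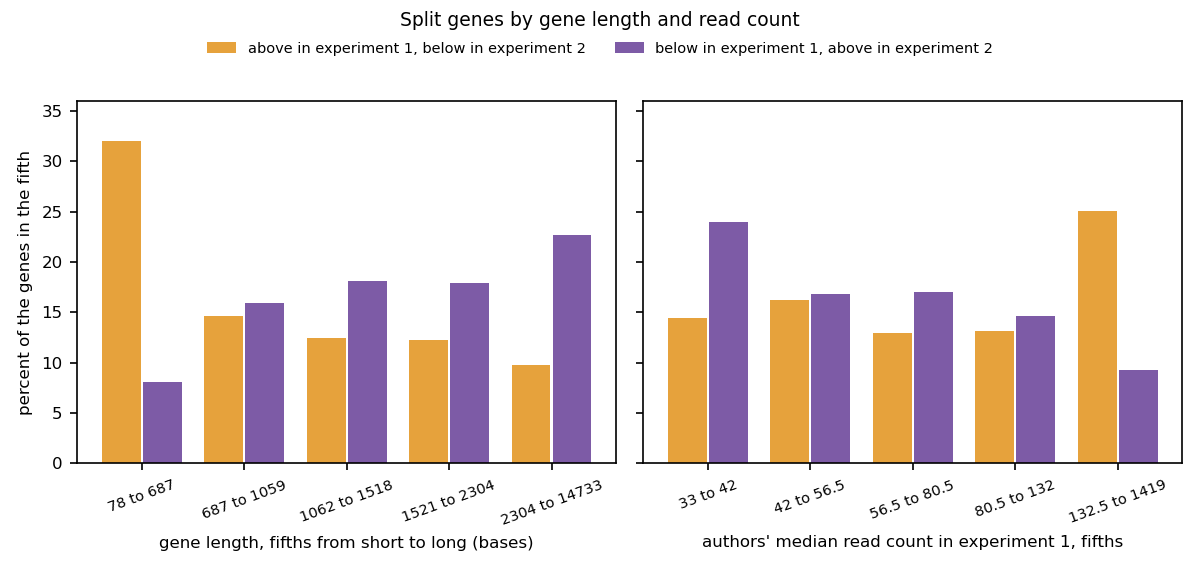
Percent of genes split between the experiments, by 20% bands of gene length (left, bases from start to stop codon) and of the authors' median read count in experiment 1 (right). Genes above the median gene in experiment 1 and below it in experiment 2 (orange) make up 32.0% of the shortest 20% and 9.83% of the longest, and the opposite split (purple) 8.06% and 22.7%.

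Experiment 3, whose cells started larger, was not used to form the groups. It was another elutriation of Cdc28-as cells given 1NM-PP1, with 3 libraries from 18.61 to 66.46 fl. Of the 778 genes above the median gene in both experiments, 579 lay above it in experiment 3 (74.4%), and of the 778 below in both, 188 did (24.2%), where 50% of the genes lie above by construction. For the genes in the top 20% of both the share was 86.1% of 209, and for those in the bottom 20% of both 12.6% of 206. All split genes together stood near an even division, with 192 of 379 above the median gene in experiment 3 for those higher in experiment 1 (50.7%) and 198 of 379 for those higher in experiment 2 (52.2%). Of the full swings, 10 of the 20 genes toward experiment 1 lay above the median gene in experiment 3 (50%) and 20 of the 27 toward experiment 2 (74.1%). Across genes experiment 3 correlated with experiment 1 at a Spearman's rho of 0.445 and with experiment 2 at 0.488. The small-subunit assembly list lay above the median gene in experiment 3 in 30 of 37 genes and the respiratory list in 20 of 38. Not all of the 14 lists high in both carried over to experiment 3. Translation factors lay above the median gene there in 15 of 33 genes, nuclear pore and transport in 12 of 24 and replication fork and licensing in 3 of 8. The rest of the 14 had more than 50% of their genes above it, among them large ribosomal subunit proteins with 46 of 76. Nor did all of the 12 lists low in both carry over. Peroxisome genes lay above the median gene in experiment 3 in 7 of 9 genes, histone and histone-like genes in 7 of 12 and oxidative defence in 12 of 22. The rest of the 12 had fewer than 50% of their genes above it.

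By rank, the Cdc28-as time course with 1NM-PP1 but no elutriation (8 libraries, 21.56 to 44.02 fl) lay nearer to experiment 1. Its scores correlated across 2309 genes with those of experiment 1 at a Spearman's rho of 0.305 and with those of experiment 2 at 0.0405. Pearson's r was 0.00679 with experiment 1 and -0.00537 with experiment 2, so only the ranks set them apart. The median gene of this series scored -0.0193 per fl, and 4.55% of its genes scored above 0. Most genes above the median gene there therefore had negative scores. Of the genes above in experiment 1 and below in experiment 2, 262 of 379 lay above the median gene there (69.1%), and of the opposite split 136 of 375 (36.3%). The groups of the translation machinery parted in this series. Ribosomal proteins lay above the median gene in 75 of 76 large-subunit and 54 of 56 small-subunit genes and the respiratory chain in 34 of 38, but small-subunit assembly in 1 of 37 and 60S assembly in 0 of 38. In the elutriated control of WT cells (6 libraries, without the analog-sensitive kinase), whose scores are per hour, 58.9% of the genes split toward experiment 1 lay above the median gene and 41.9% of those split toward experiment 2.

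**Figure D5:**
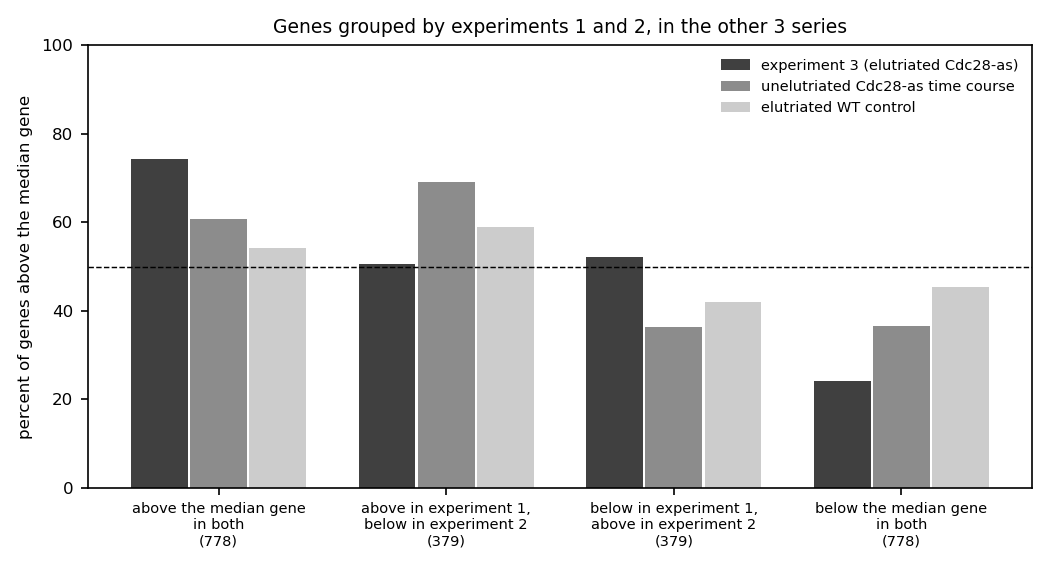
Percent of genes above the median gene in experiment 3, the unelutriated Cdc28-as time course and the elutriated WT control, for the 4 groups formed from experiments 1 and 2 (numbers of genes in brackets). The dashed line marks 50 percent, and the genes above in both experiments stand at 74.4% in experiment 3 while both split groups stand near the line there.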

How the data were processed

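The submitters' processing notes name Bowtie2 and build R64. Counting, strand use, normalization and the score's formula are not stated in them. The authors deposited 1 scaling score per gene and series, which was used as given, and 1 median read count per gene for experiment 1, a signal that is not a whole number for every gene. Depth per library is therefore unknown and counting error could not be estimated. The formula was worked out from the values of experiment 1 and assumed for experiment 2.

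From these scores the median of the 2314 genes was subtracted in each experiment, and sides and the top and bottom 20% were taken over the same genes (Python 3.11.15, pandas 2.3.3, scipy 1.17.1). The steps were tested on simulated scores. Of the genes, 2291 matched a RefSeq locus (R64), whose annotated start and stop codon give lengths, introns included. Motifs were searched on both strands in 250 bases before the start codon, and 5997 of 6001 windows were followed by ATG. The genes named are the 10 with the highest lower rank of the 2 experiments, the 10 with the lowest higher rank, the 10 with the largest rank difference in each direction, and up to 4 per described list by the same order. Genes and lists were chosen with earlier results of these data known. Read floors of 10, 100 and none, other centring, other fractions in place of 20%, annotated genes only and longer genes only were tried. Separate cultures for the 2 experiments are not stated in the labels. Other columns of the table were used only to place the groups.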

Additional observations from a re-analysis of the deposited data

Results flagged for a closer look

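The 4 lists described as split between the experiments had medians on opposite sides of the median gene, as did some lists without that description, such as the proteasome. The difference was not tested, since each experiment gives 1 score per gene. The respiratory chain and ATP synthase list had a median of 0.0146 per fl over the median gene in experiment 1 and -0.00912 in experiment 2. The TCA cycle and pyruvate dehydrogenase list had 0.0131 per fl in experiment 1 and -0.00415 in experiment 2, and the glycolysis and fermentation list 0.0109 per fl in experiment 1 and -0.0168 in experiment 2. The 6 daughter-specific and SIC1-cluster genes had -0.0268 per fl in experiment 1 and 0.00665 in experiment 2.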

How the results depend on the processing

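No paired analysis was possible because each experiment gives 1 deposited score per gene. Of 196 shares of lists recomputed under the alternatives, 156 stayed at or over 50%, 37 fell under it and 3 turned to the other side. The rank correlation of the experiments was 0.420 with a floor of 10 reads, 0.475 with 100, 0.340 with none and 0.549 in the longer genes. A floor of 10 gave 1.95% of genes in the bottom 20% of experiment 1 and top 20% of experiment 2, and 3 lists split toward experiment 2. A floor of 100 gave 0.433% in the top 20% of experiment 1 and bottom 20% of experiment 2 and 2 lists split toward experiment 2, and no floor gave 1.59% and 2.88% of genes in these full swings. Without centring, 57.1% of genes lay above 0 in both, 15.6% below in both and 10.5% above in experiment 1 alone. There 30 lists were high in both, 3 low in both, 1 split toward experiment 1 and 2 toward experiment 2, and iron and copper had 41.7% below in both and more above. Centring on the mean left 18.3% of genes above in both and 52.3% below, with 5 lists high in both, 25 low in both and 0 split toward experiment 2. Both ribosomal protein lists and the 3 lists split toward experiment 1 then lost their description, and replication fork genes stood at 25% above in both. Taking 10% in place of 20% gave 3.63% high in both, 2.94% low in both, 0.0432% and 0.346% in the full swings toward experiments 1 and 2, and taking 33.3% gave 18.5%, 18.5%, 4.67% and 4.71%. In genes of at least the median length, a setting chosen after seeing the data, 0 lists split toward experiment 2, the TCA cycle and glycolysis lists were no longer split, and iron and copper had 20% below in both. The cause of these changes was not tested.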
